A study of Mus musculus with 16 samples.

Results

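The 48 genes described here drive or mark the cell division cycle, from the cyclins that start it to the motors that separate the daughter cells. They were chosen by name as a fixed list, and each name matched a single row of both deposited count tables, so that 48 of 57010 genes were taken. All 48 passed the filter on low counts in each of the 3 comparisons.

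RNA sequencing of mouse granulosa cells (mGCs) was carried out in 2 experiments. In the first, mGCs were isolated from 5 ICR mice with endometriosis (EM-mGC) and from 5 sham-operated mice (Con-mGC). The endometriosis model was made by suturing pieces of donor endometrium to the bowel mesentery of adult females, while sham mice were operated on without an implant. Mice that received an implant kept their ovaries and were given estradiol, followed by a washout, and whether sham mice were given estradiol is not stated in the sources used here. In both groups the cells were taken after ovulation had been induced. In the second, mGCs from 6 mice of the EM model were cultured for 24 h and then received 100 nM 14,15-EET or an equal volume of PBS for another 24 h, with 3 libraries each. This schedule is given in a figure legend of the study. Its methods and the sample titles give 24 h of culture for PBS cells and 24 h of additional treatment for EET cells. Whether both groups spent the same time in culture is therefore not certain. The culture medium held 5% fetal bovine serum. 14,15-EET is a fatty acid epoxide made from arachidonic acid. No culture of sham cells and no library of cells that were cultured without any addition was analysed here, and how the 6 mice were divided among the 3 pairs is not stated in the sources used here. p-values therefore measure the spread between these libraries.

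The freshly isolated libraries held between 14229123 and 15999234 counts and the cultured ones between 21384686 and 29482826. The 48 genes took between 0.178% (EM-mGC-4) and 0.418% (EM-mGC-2) of a library's counts, and between 0.258% and 0.365% in the other 14. The mitochondrial share was 21.8% in EM-mGC-3 and ran from 6.76% to 11.1% in the other fresh libraries. The granulosa markers Fshr, Foxl2, Inha and Inhba were present in the fresh cells, beside RNA of other cells of the ovary, such as red blood cell, leukocyte and oocyte transcripts. In the cultured PBS cells Foxl2 was still at 142 CPM (counts scaled to library size with TMM factors), whereas Cyp19a1, the aromatase of granulosa cells, was at 0.163 CPM and Amh at 0.293 CPM. In bulk RNA, fewer dividing cells and less of these transcripts per cell cannot be told apart.

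Granulosa cells of the growing follicle divide rapidly under follicle-stimulating hormone, which raises cyclin D2, and they leave the cycle when the ovulatory signal turns them into luteal cells. In G1, D-type cyclins with CDK4 or CDK6 and then cyclin E with CDK2 phosphorylate the retinoblastoma proteins and release E2F factors, which switch on the genes for licensing origins and making DNA. Later in the cycle the MYBL2 and FOXM1 factors, acting with the MuvB core complex, switch on the genes of mitosis. In resting cells the same promoters are held silent by the DREAM complex. The late promoters carry a pair of short elements, the CCAAT box and the cell cycle homology region (CHR), while the early ones carry E2F elements.

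Promoters of 39 of the 48 members were matched by symbol in RefSeq (GRCm38.p6), from 250 bases before to 50 bases after the start. They were searched on both strands for the CCAAT box (CCAAT), the CHR (TTTGAA or TTCGAA) and an E2F element (TTCCCGC or TTGGCGC or TTCGCGC or TTGCCGC). A gene with several starts was counted once. A CCAAT box was found in 74.4% of the 39 against 41.1% of all 27025 genes with a promoter, a CHR in 48.7% against 21.7%, and an E2F element in 33.3% against 10.9%. The elements were divided by role. Of the 22 matched members that act in G2 or mitosis, 17 held a CHR and 4 an E2F element, and all 17 with a CHR also held a CCAAT box, a pair found in 9.65% of all genes. Of the 17 that act in G1 or S phase, 9 held an E2F element and 2 a CHR. All 7 matched origin licensing genes held an E2F element or a CHR. Cdk4, Cdk6 and Ccnd3 held neither. These matches are letters in a window and do not show that a factor binds there.

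The 250 bases upstream of the start are shown for 5 members, chosen because each shows an arrangement of the elements, on the strand of the gene and with the matches in capitals. Cdk1, the kinase that drives entry into mitosis, lies on the minus strand and has its upstream bases at chr10:69352913-69353162. Cdc20, the activator of the anaphase-promoting complex, is also on the minus strand at chr4:118437344-118437593. Mki67, the Ki-67 proliferation marker, is on the minus strand at chr7:135716380-135716629. Mcm5, a subunit of the MCM2-7 helicase, is on the plus strand at chr8:75109259-75109508. Cdk6, a G1 kinase, is on the plus strand at chr5:3343643-3343892.
Cdk1: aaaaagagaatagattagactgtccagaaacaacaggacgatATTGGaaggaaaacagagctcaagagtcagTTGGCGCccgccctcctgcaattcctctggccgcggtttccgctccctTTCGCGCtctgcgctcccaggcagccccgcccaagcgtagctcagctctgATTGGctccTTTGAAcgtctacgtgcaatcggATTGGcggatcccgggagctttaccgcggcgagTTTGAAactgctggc
Cdc20: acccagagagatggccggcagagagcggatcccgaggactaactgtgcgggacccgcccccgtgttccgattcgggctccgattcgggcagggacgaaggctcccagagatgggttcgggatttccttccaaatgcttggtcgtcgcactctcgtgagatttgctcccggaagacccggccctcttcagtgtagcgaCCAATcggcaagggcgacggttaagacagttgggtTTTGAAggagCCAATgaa
Mki67: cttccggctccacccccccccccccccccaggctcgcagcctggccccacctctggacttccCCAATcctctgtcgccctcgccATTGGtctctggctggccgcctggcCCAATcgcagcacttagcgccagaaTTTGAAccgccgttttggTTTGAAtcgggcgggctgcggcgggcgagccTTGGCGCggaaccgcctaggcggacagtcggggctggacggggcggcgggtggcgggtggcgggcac
Mcm5: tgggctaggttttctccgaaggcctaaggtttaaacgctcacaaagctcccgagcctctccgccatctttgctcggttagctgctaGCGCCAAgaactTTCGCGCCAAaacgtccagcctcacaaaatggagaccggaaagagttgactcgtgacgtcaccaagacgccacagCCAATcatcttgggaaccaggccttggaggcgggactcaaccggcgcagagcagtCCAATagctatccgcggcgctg
Cdk6: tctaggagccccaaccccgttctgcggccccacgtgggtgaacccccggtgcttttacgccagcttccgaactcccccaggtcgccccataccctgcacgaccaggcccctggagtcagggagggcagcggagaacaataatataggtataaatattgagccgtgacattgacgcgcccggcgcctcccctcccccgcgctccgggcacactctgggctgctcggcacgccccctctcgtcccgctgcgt
Cdk1 and Mki67 held all 3 kinds of element, Cdc20 a CHR between a pair of CCAAT boxes, and Mcm5 E2F elements and CCAAT boxes without a CHR. The Cdk6 stretch held none of them.

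Compared per kilobase of exon (GENCODE M21 lengths), Cdk4 was the most abundant member in every group, with 73.8 CPM per kb in Con-mGCs, 78.0 in EM-mGCs, 113 in PBS and 106 in EET cells. Cdc20 followed in the fresh cells with 37.4 CPM per kb in Con-mGCs and 32.2 in EM-mGCs. The least abundant member was Ccnd1 (cyclin D1) in the fresh cells, with 1.996 CPM per kb in Con-mGCs and 1.97 in EM-mGCs. In culture it was Cdk6, with 1.14 CPM per kb in PBS and 1.26 in EET cells. Ccnd2 (cyclin D2), the D-type cyclin of granulosa cells, ranked 9th of the 48 in Con-mGCs at 20.6 CPM per kb and 2nd in PBS cells at 85.3.

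The first question was whether endometriosis changed these genes in granulosa cells of the animal. No member was called between EM-mGCs and Con-mGCs (edgeR quasi-likelihood test, adjusted p under 0.05), and the same test called 0 of all 17229 genes (0%). No member reached an unadjusted p under 0.05 either, against 9.44% of all genes, and DESeq2 called 0 members. No member had groups that did not overlap, against 1.69% of all genes. The fitted log2 fold change was below 0 for 38 of 48 members and for 51.8% of all genes, with a median of −0.15 over the members and −0.01 over all genes. It was −0.05 without Con-mGC-1 and −0.28 without EM-mGC-2. Without EM-mGC-4, 21 members were below 0 and the median was 0.01. Without both EM-mGC-2 and EM-mGC-4, chosen after their values were seen, 35 members were below 0 and the median was −0.12. In EM-mGC-1 and in EM-mGC-5, 39 of 48 members were below the Con-mGC mean, with median log2 ratios of −0.17 and −0.16. Of all genes, 49.9% and 50.5% were below it in these 2 libraries. Among the control libraries, 11, 29, 37, 25 and 30 members were below this mean in Con-mGC-1 to Con-mGC-5, with a median of −0.09 in Con-mGC-3. The 95% intervals of 45 members lay between −1 and 1 on the log2 scale, and the median distance from the estimate to either bound was 0.48.

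**Figure D1:**
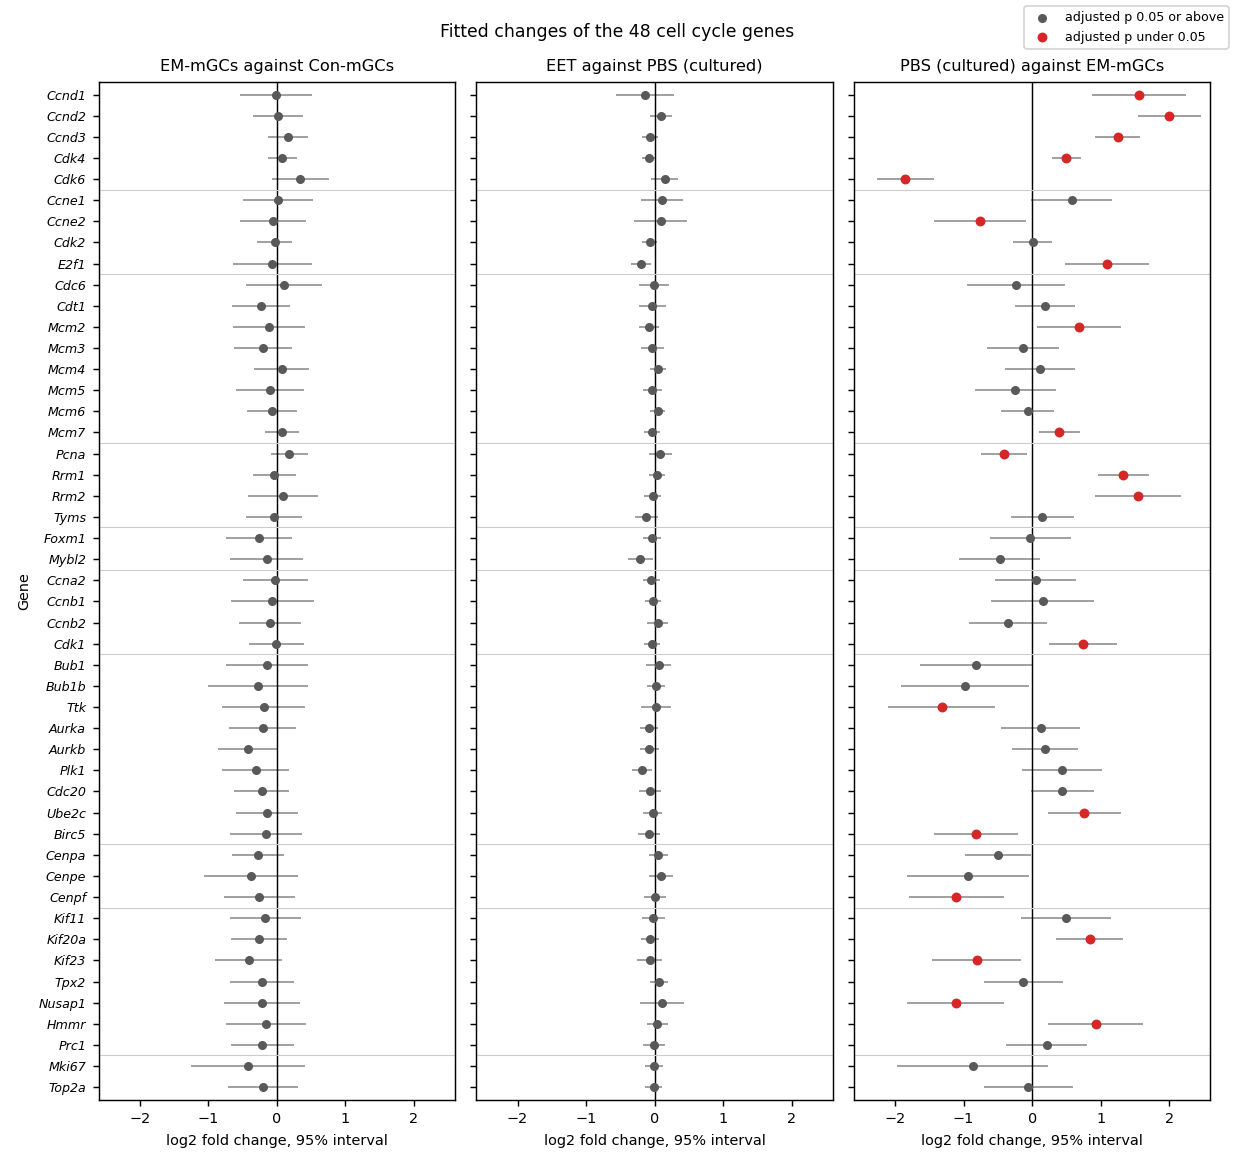
Fitted log2 fold changes of the 48 genes (points) with 95% intervals (lines) in each comparison, grouped by role from G1 cyclins at the top to Mki67 and Top2a at the bottom. No member is called in the left and middle panels, where intervals are wide between mice (left) and narrow between cultures (middle), and 21 are called in the right panel (red).

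The G1 group holds the D-type cyclins with their kinases, and 4 of its 5 members had a fold change above 0. Ccnd2 had 234, 181, 194, 231 and 219 CPM in the Con-mGC libraries and 211, 288, 211, 135 and 225 in the EM-mGC libraries, a log2 fold change of 0.01 with a 95% interval from −0.35 to 0.38. Cdk4 was even in the EM group, between 264 and 288 CPM, against 242 to 310.0 in the control. Ccnd3 (cyclin D3) had a log2 fold change of 0.16 (interval −0.13 to 0.46). Cdk6 had the highest fold change of the 48. Its levels were 39.9, 59.6, 55.0, 56.2 and 31.9 CPM in the control and 73.8, 71.5, 54.3, 42.4 and 64.4 in EM-mGCs, so the fitted log2 difference was 0.34 (interval −0.08 to 0.75, adjusted p = 0.586). The groups overlapped for all 4 genes.

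Genes of the G1/S switch, origin licensing and DNA synthesis lay on both sides of 0, with 6 of 16 members above it. Pcna, the sliding clamp of the replication fork, had 49.99 ± 4.40 CPM (SD, n = 5) in Con-mGCs and 56.6 ± 9.82 in EM-mGCs, a log2 fold change of 0.18 (adjusted p = 0.655). Cdc6, which loads the helicase, had a log2 fold change of 0.10, and Rrm2, the small subunit of ribonucleotide reductase, one of 0.09. Mcm5 was at 87.6 ± 17.0 and 81.7 ± 27.1 CPM, and Ccne1 (cyclin E1) differed by 0.01 on the log2 scale.

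All 27 members that act in G2 and mitosis had a fold change below 0, and none passed the test. Not all of these signs held without EM-mGC-4. In that fit 17 members of the full list changed sign, and Ccnb1 (0.095), Cdk1 (0.14) and Kif11 (0.018) were above 0. Without Con-mGC-1, 10 members of the full list changed sign, and Ccnb1 (0.052) was above 0. In EM-mGC-1 and EM-mGC-5 all 9 mitotic kinases and checkpoint genes were below the Con-mGC mean. Most control libraries were also below that mean for most of these genes, since all 9 were above it in Con-mGC-1. The number below was 8 in Con-mGC-2, 7 in Con-mGC-3, 7 in Con-mGC-4 and 5 in Con-mGC-5. The list of 61 further mitosis genes, which shares no gene with the members, had 50 below 0 and a median of −0.20. These genes come from the same libraries and their sum was also lowest in EM-mGC-4, so they are no independent check. The 5 lowest members were Mki67, Aurkb, Kif23, Cenpe and Plk1. Mki67 had 213, 237, 209, 253 and 224 CPM in Con-mGCs and 228, 313, 48.7, 81.1 and 173 in EM-mGCs, a log2 fold change of −0.43 with an interval from −1.26 to 0.41 (adjusted p = 0.738). Its EM values thus ran from far below to above every control value. Aurkb, the kinase of the chromosomal passenger complex, had 49.0, 34.7, 31.3, 33.6 and 30.1 CPM in the control and 26.2, 36.1, 28.5, 15.5 and 27.4 among EM-mGCs. It had the smallest adjusted p of the members, 0.540, with a log2 fold change of −0.42 (interval −0.86 to 0.02). In 4 of the 5 EM libraries Aurkb was below every control library. Kif23, a motor of the central spindle, had a log2 fold change of −0.41, Cenpe, a kinetochore motor, of −0.38, and Plk1, the polo kinase, of −0.31, with adjusted p between 0.575 and 0.711. Ccnb1 (cyclin B1), Cdk1 and Top2a (the topoisomerase that untangles chromosomes) differed by −0.07, −0.01 and −0.20.

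The EM-mGC libraries varied more from mouse to mouse than the Con-mGC libraries did. The coefficient of variation was larger among the 5 EM libraries than among the 5 Con libraries for 45 of 48 members (93.8%) and for 61.9% of all genes. Its median over the members was 34.4% in the EM group and 12.8% in the control, and over all genes 21.2% and 17.2%. Without EM-mGC-2 and EM-mGC-4, chosen after their values were seen, the median over the members was 13.6% in the EM group, and 56.2% of members had the larger value there. Over all genes the median was 18.7%, and 53.5% had the larger value there. Leaving out the extreme libraries of the EM group alone was bound to lower its spread, so no conclusion is drawn from this step. No test was made of the difference in spread between the groups, since the members share their libraries.

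**Figure D2:**
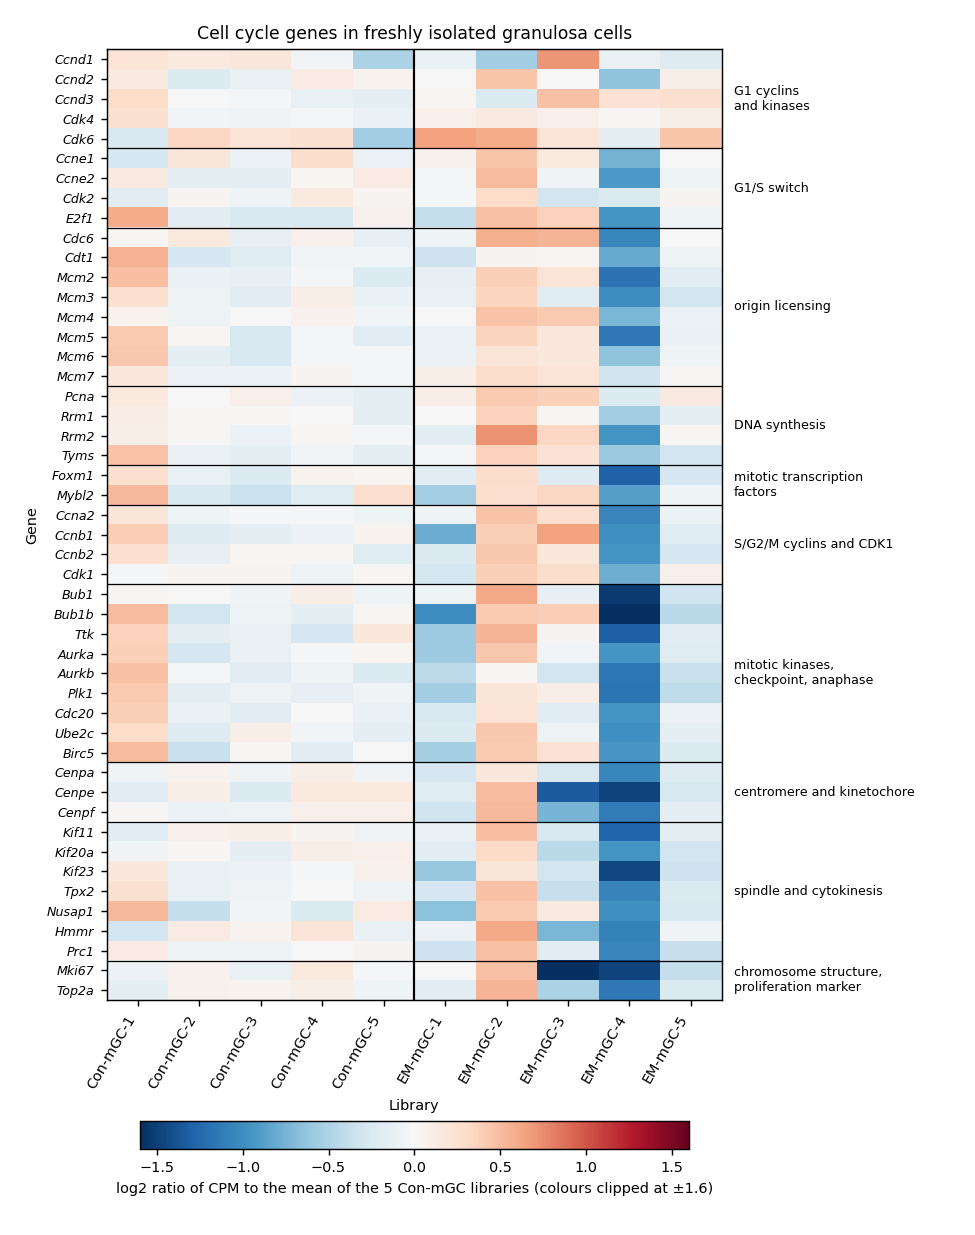
log2 ratio of each gene's CPM (rows, by role) in each freshly isolated library (columns) to the mean of the Con-mGC libraries. EM-mGC-4 is blue for 46 of 48 genes and palest among the G1 cyclins and kinases, EM-mGC-2 is red for 46, and in EM-mGC-3 the dark cells are Mki67 (−2.21, beyond the end of the colour scale) and Cenpe (−1.33).

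EM-mGC-4 held the lowest value of all 10 fresh libraries for 42 of 48 members (87.5%), against 13.3% of all genes. Its median log2 ratio to the Con-mGC mean was −0.97 over the members and −0.005 over all genes. These ratios differed by role. The median ratio was −0.12 for the 5 G1 cyclins and kinases, −0.58 for the 4 DNA synthesis genes, −0.90 for the 8 origin licensing genes, −1.16 for the 9 mitotic kinases and checkpoint genes and −1.31 for Mki67 and Top2a. Cdk4 was at 264 CPM in this library against a control mean of 262, and Ccnd2 at 135 against 212. Foxm1 was at 23.1 CPM against a control range of 49.1 to 68.5, and Plk1 at 21.3 against 43.6 to 65.1. Bub1b, a spindle checkpoint kinase, was at 34.3 CPM against 86.2 to 150.4. The 61 mitosis genes outside the list summed to 1434 CPM in EM-mGC-4 and to between 2171 and 3182 in the other 9 fresh libraries, and the 45 further S phase genes to 1113 against 1524 to 2146.

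EM-mGC-2 was the opposite case. It held the highest value for 30 members (62.5%), against 10.9% of all genes, and 46 of 48 were above the control mean, with a median log2 ratio of 0.42. Rrm2 was at 65.0 CPM against 36.6 to 41.8 in the control, Top2a at 243 against 149.7 to 179, and Cdk1 at 55.3 against 39.9 to 43.5. Ccnd1 and Ccnd3 were the only members below the control mean in this library, at 6.70 and 40.5 CPM.

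Other gene lists moved with these 2 libraries. The 11 granulosa markers summed to 6318 CPM in EM-mGC-4 and 21790 in EM-mGC-2, the lowest and the highest of the fresh libraries, with 11176 to 16632 in the other 8. The 13 CDK inhibitors and brakes summed to 927 CPM in EM-mGC-4, and between 371 and 619 in the other 9. Here and below this list also holds Cdc25a, which activates CDKs and is not a brake. The 10 neutrophil markers summed to 237 CPM in EM-mGC-4 and 67.4 in EM-mGC-2, against 22.0 to 77.3 in the control and 86.3 to 204 in the other EM libraries. None of them was at 0 in an EM library. Of the 9 tested, 8 had an unadjusted p under 0.05 and were higher in EM-mGCs, and none was called. The stromal and smooth muscle markers were lowest in EM-mGC-2, at 507 CPM against 868 to 1461. The part of these cells in the levels of the members was not tested.

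**Figure D3:**
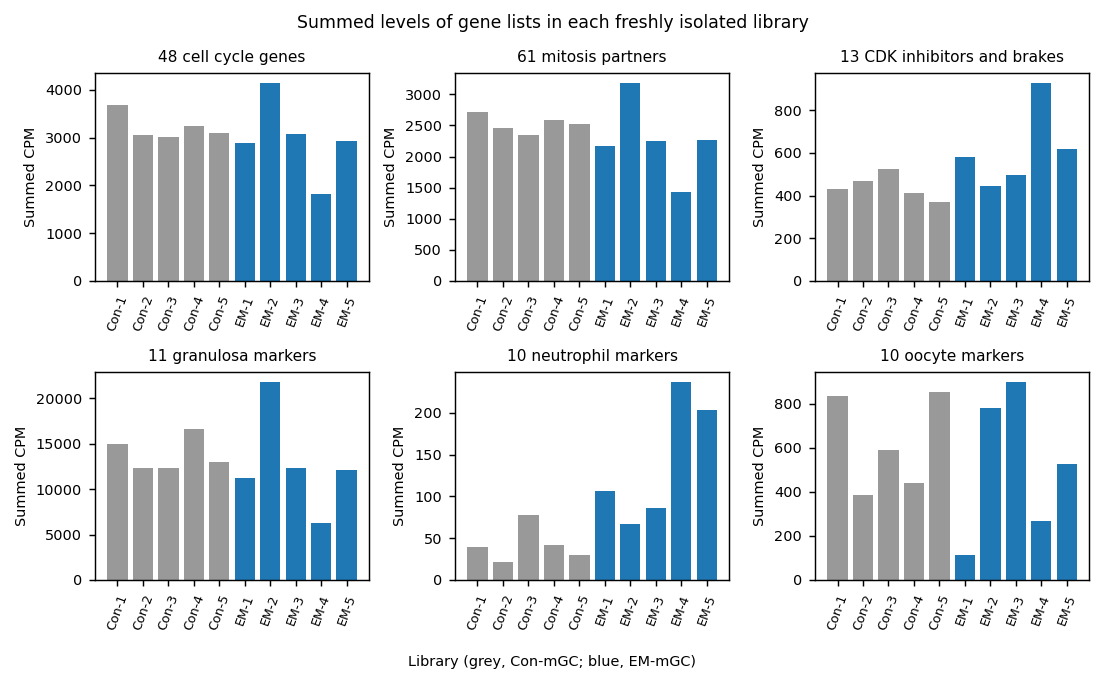
Summed CPM of 6 gene lists (bars, from 0) in each freshly isolated library, with Con-mGC in grey and EM-mGC in blue. EM-mGC-4 is lowest for the cell cycle genes (1819 CPM), the mitosis partners and the granulosa markers and highest for the CDK inhibitors and the neutrophil markers, and EM-mGC-1 is lowest for the oocyte markers (114 CPM).

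The brakes of the cycle gave no call between the groups. Of the 12 CDK inhibitors and brakes tested, 9 had a fold change above 0 and 3 reached an unadjusted p under 0.05, against 5.22% of all genes in that direction. These 3, named after their values were seen, were Btg2, an antiproliferative gene, whose log2 fold change was 1.15 (edgeR, adjusted p = 0.433), Gadd45a, a stress gene that inhibits CDK1, with 0.93 (0.501), and Cdkn1a, which encodes the inhibitor p21, with 0.92 (0.437). The medians were 0.21 for this list and −0.04 for the 18 E2F, pocket protein and DREAM genes, in which no gene was called.

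EM-mGC-3, the library with the high mitochondrial share, was uneven within the list. It also held the most red blood cell marker RNA of the fresh libraries, 17413 CPM against 2648 to 6147 in the others, and the most leukocyte marker RNA, 451 CPM against 140 to 295. The part of these cells in its values was not tested. Mki67 was at 48.7 CPM, Cenpe at 21.6, Cenpf (a large kinetochore protein) at 38.8 and Hmmr (a spindle protein) at 11.9, each below every control library, whereas Ccnb1 at 104 was above every control library. The genes named for this library were chosen after their values were seen. The rank correlation of exon length with the log2 ratio in this library was −0.29 across the 48 members and −0.24 across 16953 genes. It was −0.45 across the members in Con-mGC-1, and between −0.14 and 0.38 in the other 8 fresh libraries. Across all genes it was −0.21 in Con-mGC-1, and between −0.18 (EM-mGC-4) and 0.18 (Con-mGC-4) in those 8. This is a description across genes, which are not independent.

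Within EM-mGC-1 the mitotic kinases were the lowest role, with a median log2 ratio of −0.54 for those 9 genes and −0.17 for all members. For the same 9 genes EM-mGC-4 was lower, at −1.16. Bub1b was at 52.6 CPM and Ccnb1 at 38.0, both below the control range. The 10 oocyte markers summed to 114 CPM in EM-mGC-1, 779 in EM-mGC-2, 898 in EM-mGC-3, 269 in EM-mGC-4 and 528 in EM-mGC-5, and to between 386 and 852 in the control. Maturing oocytes also store Ccnb1 and Bub1b transcripts. Bub1b was below every control library in the EM libraries with the 3 lowest oocyte sums and within the control range in the other 2. Of those 3, EM-mGC-5 had Bub1b at 77.9 CPM against 86.2 to 150.4 in the control, with an oocyte sum inside the control range. In EM-mGC-4, 46 of 48 members were below the Con-mGC mean. The part of oocyte RNA in these values was not tested.

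The second question was whether 14,15-EET changed the cycle genes of cultured EM cells. No member was called between the EET and the PBS group (edgeR), against 184 of 15050 genes (1.22%). With the replicate number as a block 341 genes were called and still no member, and DESeq2 called 0 members. The spread was small, so that the 95% intervals of 47 members lay between −0.5 and 0.5 on the log2 scale and the median distance from the estimate to either bound was 0.15. The exception was Ccnd1, which had 35.1, 18.8 and 18.9 CPM in PBS and 19.2, 22.6 and 23.6 in EET cells, where PBS-1 stood above the rest, and an interval from −0.57 to 0.28. The log2 fold changes ran from −0.21 to 0.15, with 18 above and 30 below 0, where 49.6% of all genes were below it, and a median of −0.03. All 48 intervals lay between −1 and 1.

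Of the 48, 3 reached an unadjusted p under 0.05, all lower in the EET group, against 12.4% of all genes in either direction and 6.38% in this one. E2f1, the E2F factor that opens S phase, had 36.6, 34.0 and 35.3 CPM in PBS and 32.5, 28.7 and 30.9 in EET cells, a log2 fold change of −0.20 (SE 0.07, adjusted p = 0.222). Plk1 had 47.3, 41.8 and 41.8 CPM in PBS and 39.0, 39.6 and 36.5 in EET cells, a log2 fold change of −0.18 (SE 0.07, adjusted p = 0.279). In both genes every EET library was below every PBS library. Mybl2, the B-MYB factor of late cycle genes, had 20.4, 18.3 and 20.8 CPM in PBS and 18.6, 16.1 and 16.7 in EET cells, where the groups overlapped, and a log2 fold change of −0.21 (SE 0.08, adjusted p = 0.340). In all, 6 members (12.5%) had EET values that were all lower, namely Cdk4, Cdk2, E2f1, Aurka, Aurkb and Plk1, and none had values that were all higher, against 9.17% and 8.48% of all genes. A share of this size is near the background.

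The other roles were level. Mki67 was at 75.0 ± 5.72 CPM (SD, n = 3) in PBS and 74.4 ± 2.55 in EET cells, and Top2a at 113 ± 7.57 and 113 ± 3.71. Ccnb1, Cdk1, Foxm1, Mcm5, Rrm2 and Kif11 differed by between −0.04 and −0.02 on the log2 scale. Among the D-type cyclins Ccnd2 was at 697 ± 84.1 CPM in PBS and 743 ± 31.9 in EET cells (log2 fold change 0.09, interval −0.07 to 0.26). The highest fold change was that of Cdk6, at 13.8 ± 1.28 and 15.3 ± 0.578 CPM (0.15, interval −0.05 to 0.34), followed by Nusap1, a spindle protein, with 0.11 and Ccne1 with 0.11. The 45 S phase genes, the 61 mitosis genes, the 18 regulators and the 13 brakes had 0 calls in either direction, and their medians lay between −0.02 and 0.00.

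The third comparison set the cultured PBS cells beside the freshly isolated EM-mGCs, both from mice of the EM model. It uses the same PBS libraries as the EET comparison and the same EM libraries as the first. Culture in medium with serum, the experiment, the mice and the sequencing run cannot be told apart here. CPM were rescaled over these 8 libraries, so EM values differ slightly from those above. Of the 48 members 21 were called (43.8%), against 69% of all 17301 genes. Of these 13 were higher and 8 lower in culture, against 31.1% and 37.9% of all genes. The fold change was below 0 for 22 members and for 53.9% of all genes. The groups did not overlap for 16 members, against 66.3% of all genes. With upper-quartile scaling, which lowers the fold change of all genes by 0.25 on the log2 scale, 8 were higher and 13 lower, and with genes of at least 10 counts in every library 9 and 12. The number of lower members was 15 without EM-mGC-4, and 4, 5 and 4 without PBS-1, PBS-2 and PBS-3. It was also 15, beside 15 higher, without EM-mGC-2 and EM-mGC-4. Of the 21, 12 were called in the same direction in every alternative run, 8 higher and 4 lower.

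**Figure D4:**
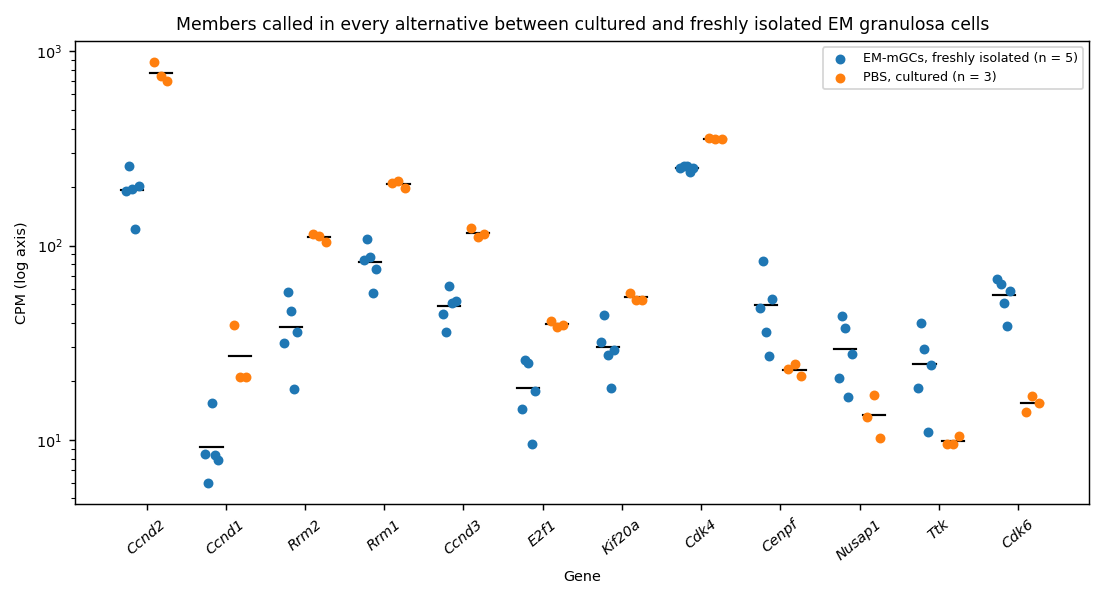
CPM on a log axis of the 12 genes that were called in every alternative, in the 5 fresh EM-mGC libraries (blue) and the 3 cultured PBS libraries (orange), with bars at the means. The groups are apart for 11 of them, and for Nusap1 the highest cultured value (17.1 CPM) lies within the fresh range of 16.5 to 43.6 CPM.

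All 5 members of the G1 group were called, 4 higher and 1 lower. On GRCm39, Ccnd2 lies at chr6:127102125-127129156 on the minus strand, Cdk4 at chr10:126899403-126903789 and Cdk6 at chr5:3391485-3581008, both on the plus strand. Ccnd2 rose from 192, 256, 195, 122 and 203 CPM in the EM-mGC libraries to 882, 743 and 703 in the PBS libraries, a log2 fold change of 2.002 (SE 0.20, adjusted p = 1.97e-05). Every cultured library was above every fresh one. Ccnd1 rose from 9.22 ± 3.63 to 27.0 ± 10.4 CPM (log2 fold change 1.55, adjusted p = 0.0013) and Ccnd3 from 49.0 ± 9.48 to 116 ± 5.79 CPM (1.25, adjusted p = 5.34e-05). Cdk4 rose from 251 ± 6.68 to 354 ± 3.11 CPM (0.50, adjusted p = 0.000935). Cdk6, the other kinase of the D-type cyclins, fell from 67.0, 63.7, 50.4, 38.5 and 58.2 CPM to 13.9, 16.8 and 15.4, a log2 fold change of −1.85 (SE 0.19, adjusted p = 1.79e-05). The groups overlapped for neither kinase.

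Of the G1/S switch E2f1 rose from 18.5 ± 6.91 to 39.3 ± 1.43 CPM (log2 fold change 1.09, adjusted p = 0.00501), and Ccne2 (cyclin E2) fell from 11.8 ± 3.90 to 6.97 ± 1.93 (−0.76, adjusted p = 0.0448). Ccne1 had a log2 fold change of 0.57 with an interval from −0.02 to 1.17. Both large and small subunits of ribonucleotide reductase, which makes deoxynucleotides, rose. Rrm2 had 31.5, 57.9, 46.0, 18.2 and 36.1 CPM in fresh and 115, 111 and 104 in cultured cells (1.54, adjusted p = 0.000798), and Rrm1 went from 82.4 ± 18.3 to 207 ± 9.75 CPM (1.33, adjusted p = 7.86e-05). Pcna fell from 51.4 ± 8.95 to 38.7 ± 2.70 CPM (−0.41, adjusted p = 0.0308), with overlapping groups. Of the 8 origin licensing genes Mcm2 (0.68) and Mcm7 (0.40) rose, and the other 6, Mcm5 among them at −0.25, were not called. The calls of Ccne2, Pcna, Mcm2 and Mcm7 were each lost in at least 1 alternative.

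The mitotic genes were divided. Cdk1 rose from 31.5, 49.2, 47.4, 22.1 and 40.1 CPM to 64.4, 66.9 and 60.2 (log2 fold change 0.75, adjusted p = 0.0129), and its partner Ccnb1 was at 58.1 ± 28.3 and 64.5 ± 1.15 CPM (0.15, adjusted p = 0.703), a difference that was −0.09 with upper-quartile scaling. Hmmr (0.93), the cytokinesis motor Kif20a (0.84) and the ubiquitin-conjugating enzyme Ube2c (0.76) rose. Ttk, the MPS1 checkpoint kinase, fell from 18.4, 39.9, 29.2, 10.96 and 24.3 CPM to 9.51, 9.49 and 10.5 (−1.32, adjusted p = 0.00713). Cenpf fell from 49.4 ± 21.5 to 23.0 ± 1.56 CPM (−1.11, adjusted p = 0.00958), Nusap1 from 29.3 ± 11.3 to 13.5 ± 3.43 (−1.12, adjusted p = 0.0103), the survivin gene Birc5 from 41.6 ± 15.4 to 23.5 ± 0.691 (−0.82) and Kif23 from 51.9 ± 19.1 to 29.6 ± 2.91 (−0.81). The calls of Cdk1, Hmmr, Ube2c, Birc5 and Kif23 were each lost in at least 1 alternative. Foxm1, Aurka, Plk1, Cdc20, Cenpa and Kif11 were not called, nor were Mki67 and Top2a. Mki67 had 207, 279, 45.2, 73.6 and 157 CPM in fresh and 76.4, 89.0 and 85.1 in cultured cells, a log2 fold change of −0.87 (adjusted p = 0.143) that passed the test without EM-mGC-3 (−1.12, adjusted p = 0.0250).

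Of the wider lists, the 61 mitosis genes had 8 called higher and 19 lower, led by Gtse1 (1.196), Ect2 (0.95) and Anln (0.85) and by Ska1 (−1.97), Kif15 (−1.90) and Aspm (−1.34). The 45 S phase genes had 6 higher and 14 lower, led by Gmnn, the licensing inhibitor geminin (1.31), Fen1 (0.80) and Tk1 (0.79) and by Cdc7 (−1.72), Brca2 (−1.63) and Pold3 (−1.26). The 18 regulators had 4 higher, among them E2f3 (0.75), Rbl2 (0.72) and Tfdp1 (0.69), and 3 lower, E2f5 (−1.66), Rbl1 (−0.60) and Tfdp2 (−0.44). Of the 12 brakes tested 6 were higher and 2 lower. Cdkn1a rose from 32.8 ± 12.2 to 393 ± 64.8 CPM (log2 fold change 3.58, adjusted p = 4.47e-06), Ccng1, a p53 target, from 77.9 ± 10.4 to 318 ± 30.4 CPM (2.03) and Cdkn2b from 10.1 ± 6.05 to 22.2 ± 1.58 CPM (1.13), while Cdkn1c (−1.47) and Cdkn2c (−0.80) fell.

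Most markers of other ovarian cells were lower in the cultures, but for some cell types the sum of the list was not. The 10 oocyte markers summed to between 104 and 833 CPM in the fresh EM libraries and to between 1.2 and 1.3 CPM in the PBS libraries, where 6 to 8 of the 10 were at 0. Leukocyte markers went from 152 to 419 CPM to between 12.8 and 13.6 CPM, and red blood cell markers from 2358 CPM or more to at most 0.3 CPM. The 9 stromal and smooth muscle markers summed to between 781 and 1046 CPM in PBS libraries against 451 to 1020 in EM-mGCs, the 7 surface epithelial markers to between 172 and 189 against 83.8 to 196, and the 5 theca markers to between 48.2 and 53.3 against 197 to 336. Of the stromal and smooth muscle markers 6 were called lower and 2 higher, with a median log2 fold change of −2.97. Of the surface epithelial markers 5 were called lower and 2 higher, with a median of −4.28. The granulosa markers were called lower for 10 of 11. The part of these cells in the changes of the members was not tested. Of the 48 members 24 overlap another counted gene, most often on the other strand, among them the D-type cyclins, Cdk4, Cdk6, Pcna, Rrm1, Plk1, Mki67 and Top2a. Whether strand was used in counting is not stated in the sources used here, so reads of the overlapping parts are uncertain.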

How the data were processed

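RNA of 16 libraries (poly(A), stranded paired-end kit) was sequenced. The deposited tables hold raw counts per gene made by the authors, and the counter is given as featureCounts only in the tables' names. The submitters' processing notes name fastp, HISAT2, StringTie and GRCm39, with no roles or versions. Gene counts of each comparison were fitted with edgeR 4.0.16 (R 4.3.3, TMM factors, filterByExpr, quasi-likelihood test, Benjamini-Hochberg adjustment over all genes tested, threshold 0.05). DESeq2 1.42.0 was an alternative. PBS against EM joined both tables by Ensembl ID. Library totals ran from 14229123 to 29482826 counts. The members, roles and gene lists were chosen with earlier results of these data known. Named were called members of the largest fold each way, or the 5 highest and 5 lowest members where few were called, and fixed examples of each role. Other names were chosen after their values were seen. Scripts were tested on simulated counts.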

Additional observations from a re-analysis of the deposited data

Results flagged for a closer look

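Dixon's test was applied to each of the 48 genes within each group of 5 freshly isolated libraries, 96 groups in all. The extreme library lay apart from the others (gap over range above 0.71) in 9 groups, or 9.38%, where chance gives about 1 in 20, and genes of the same libraries are not independent. In 8 of the 9 the high library was Con-mGC-1. It held 310.0 CPM of Cdk4 against 242 to 255 in the other Con-mGC libraries, 44.5 of Cdt1 (which loads the replicative helicase) against 25.01 to 29.2, 124 of Mcm2 against 75.5 to 87.4 and 38.7 of Tyms (thymidylate synthase) against 25.1 to 27.1. It also held 68.5 CPM of Ccna2 (cyclin A2) against 56.8 to 58.9, 49.0 of Aurkb against 30.1 to 34.7, 65.1 of Plk1 against 43.6 to 46.9 and 98.6 of Cdc20 against 67.0 to 76.0. In the remaining group EM-mGC-3 held 16.7 CPM of Ccnd1 against 6.70 to 9.33.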

How the results depend on the processing

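No member was called between EM-mGCs and Con-mGCs or between EET and PBS cells under any alternative run. Over all genes, EM against Con gave 0 calls, 116 with DESeq2, 4 with every gene with a read, 2 with the replicate block and between 0 and 46 without 1 library (46 without Con-mGC-3). EET against PBS gave 184 calls, 322 with DESeq2, 662 with every gene with a read, 341 with the replicate block and between 48 (without EET-3) and 436 (without PBS-2). In PBS against EM, 13 members were higher and 8 lower. These were 8 and 13 with upper-quartile factors, 11 and 15 with the replicate block, 15 and 15 without EM-mGC-2 and EM-mGC-4 (chosen after seeing the data), and 10 to 16 and 4 to 15 without 1 library. The cause was not tested. The replicate block joins same-numbered libraries, which in EM against Con and in PBS against EM come from different mice. They are not pairs in these comparisons.

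Log2 fold changes near 0 turned sign. In EM against Con, Cdk1 was 0.00087 with DESeq2, 0.0060 with every gene with a read and 0.043 without EM-mGC-2 and EM-mGC-4, and with the replicate block Ccnd2 was −0.018, Ccne1 −0.014 and Rrm2 −0.0031. In PBS against EM, Ccnb1 was −0.094 and Aurka −0.13 with upper-quartile factors, Ccnb1 −0.0046 and Aurka −0.037 with at least 10 counts in every library, Foxm1 0.0060 with every gene with a read, and Aurka −0.016 with the replicate block. Without 1 library, EM against Con ranged from −0.12 to 0.14 for Ccnd2, −0.12 to 0.17 for Ccne1, −0.048 to 0.30 for Cdc6, −0.23 to 0.078 for Mcm5, −0.12 to 0.27 for Rrm2, −0.32 to 0.095 for Ccnb1, −0.13 to 0.14 for Cdk1 and −0.39 to 0.018 for Kif11. EET against PBS ranged from −0.30 to 0.21 for Ccnd1, −0.0071 to 0.28 for Ccne1, −0.081 to 0.030 for Mcm5, −0.077 to 0.0055 for Rrm2, −0.13 to 0.018 for Cdc20, −0.063 to 0.076 for Kif11, −0.059 to 0.32 for Nusap1, −0.069 to 0.032 for Mki67 and −0.041 to 0.044 for Top2a. PBS against EM ranged from −0.024 to 0.38 for Ccnb1, −0.21 to 0.11 for Foxm1, −0.23 to 0.17 for Top2a and −0.030 to 0.30 for Aurka.

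Same-numbered libraries deviated from their group means with correlations between −0.25 and 0.22 (EM and Con) and between −0.02 and 0.10 (EET and PBS, which the methods call paired). The numbers were not used to pair samples in the main fits, and the replicate block was run as an alternative. Correlations from so few libraries cannot show that the cultures were unpaired.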
